A study of Mus musculus with 36 samples.

Results

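Exposure to regulatory T cells (Treg) was examined in conventional CD4 T cells (Tconv) deleted for HP1γ. The comparison took every library of 2 groups by its label, the 3 libraries of HP1γ knockout (KO) Tconv recovered after transfer together with Treg and the 3 of HP1γ KO Tconv transferred alone. These are 6 of the 36 ATAC-seq libraries of the series, and 71508 of its 71509 consensus peaks were tested, the remaining peak having too few reads. No peak was left out by its gene or position, while the gene lists described below were chosen with earlier results of these data known.

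HP1γ, encoded by Cbx3, is a reader of histone H3 methylated at lysine 9, the mark of heterochromatin, and is also found over transcribed genes. Treg are CD4 T cells that depend on the transcription factor Foxp3 and restrain Tconv through consumption of IL-2, inhibitory receptors such as CTLA-4, adenosine and suppressive cytokines. Tconv that meet antigen for a long time or without adequate help can enter anergy or exhaustion, states known for inhibitory receptors such as PD-1, for the factor TOX and for a distinct set of open enhancers. ATAC-seq counts the insertions of a transposase into open DNA, so a higher count at a peak means that the site was more accessible, in more cells or in more of the chromatin of each cell.

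The KO mice carried floxed Hp1g alleles and a Cd4-cre transgene, which deletes the gene in T cells from the stage at which Cd4 is first expressed, so the deletion in Tconv of both groups precedes their contact with antigen or Treg. Wild-type (WT) libraries came from littermates with the floxed allele and no Cre, and the mice were sex-matched young adults of a mixed 129/Sv and C57BL/6 background. Naive CD4 T cells were injected with a mix of B6 and B6D2F1 bone marrow into lethally irradiated B6 hosts, alone or with Treg expanded ex vivo from WT B6 Foxp3-Thy1.1 mice, and Tconv specific for the donor were later sorted from spleen as CD4+ Thy1.1- TCR Vβ6+ cells that were CD45.2+ CD45.1- and H-2Kb+ H-2Kd-. The KO naive group and 3 WT groups (naive, Tconv, Tconv with Treg), each with 3 libraries, entered the same fit, so that 18 libraries shared 1 estimate of the spread. Nothing in the labels says that replicates 1 to 3 were separate mice, so the p-values measure the spread between these libraries, which may be technical. The gate removes cells of CD45.1+ hosts, but the methods also name C57BL/6J hosts, without saying which served here, and it does not separate transferred cells from T cells of such hosts or of the grafted B6 marrow. In bulk libraries such as these, fewer cells with a site open and less opening of the site in each cell cannot be told apart.

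Reads in peaks came to 50.6, 32.6 and 67.7 M (mega) in KO Tconv replicates 1 to 3 and to 64.2, 60.5 and 39.6 M in KO Tconv with Treg, within the 19.4 to 90.3 M of all 18 libraries. The share of reads in peaks with a transcription start site (TSS) at most 1 kb away was 73.5 to 74.5% without and 72.8 to 74.8% with Treg, and replicates correlated at 0.959 to 0.976 and 0.953 to 0.977 on log2 CPM (counts scaled to a common library size). The peak at the Cbx3 TSS had 7.43, 7.48 and 7.52 log2 CPM without and 7.36, 7.45 and 7.38 with Treg, but it is shared with the start of Hnrnpa2b1 and the sources used here do not say which part of Cbx3 is deleted, so it does not check the knockout. Peaks of the CD4 T cell markers summed to 1841 to 2115 CPM without and 1681 to 1917 CPM with Treg, with 0 of their peaks called, and those of Cd8a and Cd8b1 to 7.05 to 9.48 and 5.58 to 8.44 CPM. Myeloid markers summed to 117 to 126 and 117 to 140 CPM, NK markers to 484 to 584 and 504 to 554 CPM, dendritic cell markers to 416 to 540 and 458 to 461 CPM, and erythroid markers to 16 to 24.8 and 17.7 to 23.6 CPM. Of 27 myeloid marker peaks 4 were called higher (14.8%) and 3 lower (11.1%), and of 27 NK marker peaks 4 were called lower (14.8%). Over all peaks these shares were 6.10% higher and 2.06% lower. The summed levels of B cell markers did not overlap, with 36.6 to 48.2 CPM without and 52.7 to 57.7 CPM with Treg and 2 of 18 peaks, both at Pax5, called higher, while Ms4a1 and Cd79a had no assigned peak. The part of these cells in the results was not tested.

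More peaks were called higher with Treg than lower, while the separation of libraries over all peaks was near even in the 2 directions. Of the peaks tested, 4360 were called higher (6.10%) and 1471 lower (2.06%), together 5831 (8.15%), where a call means an adjusted p under 0.05 in edgeR's quasi-likelihood F test and an absolute log2 fold change over 1. The median log2 fold change was 1.47 (range 1.0 to 3.52) over the peaks called higher and -1.26 (range -3.35 to -1.0) over those called lower, against -0.02 over all peaks. All 3 libraries with Treg lay above all 3 without at 3069 (70.4%) of the peaks called higher, against 7861 (11%) of all peaks, and below them at 1348 (91.6%) of the peaks called lower, against 7819 (10.9%) of all. By the nearest protein-coding TSS within 100 kb, the higher peaks belonged to 2316 genes and the lower ones to 887, of which 170 had both, out of 15029 genes with a peak. The number of calls rested on the libraries and on the shared spread. Without KO Tconv with Treg replicate 1 it was 2132, without KO Tconv with Treg replicate 2 it was 9338, without KO Tconv replicate 1 it was 3795, and with only the 6 compared libraries in the fit it was 607, of which 603 were among the 5831. The labels number the libraries, and replicate 1 of the transferred groups carries lower numbers than replicates 2 and 3. Over the 6 libraries, 1304 peaks were called with low against high library number as a block, 0 with the replicate number as a block and 358 with replicates 2 and 3 only.

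**Figure D1:**
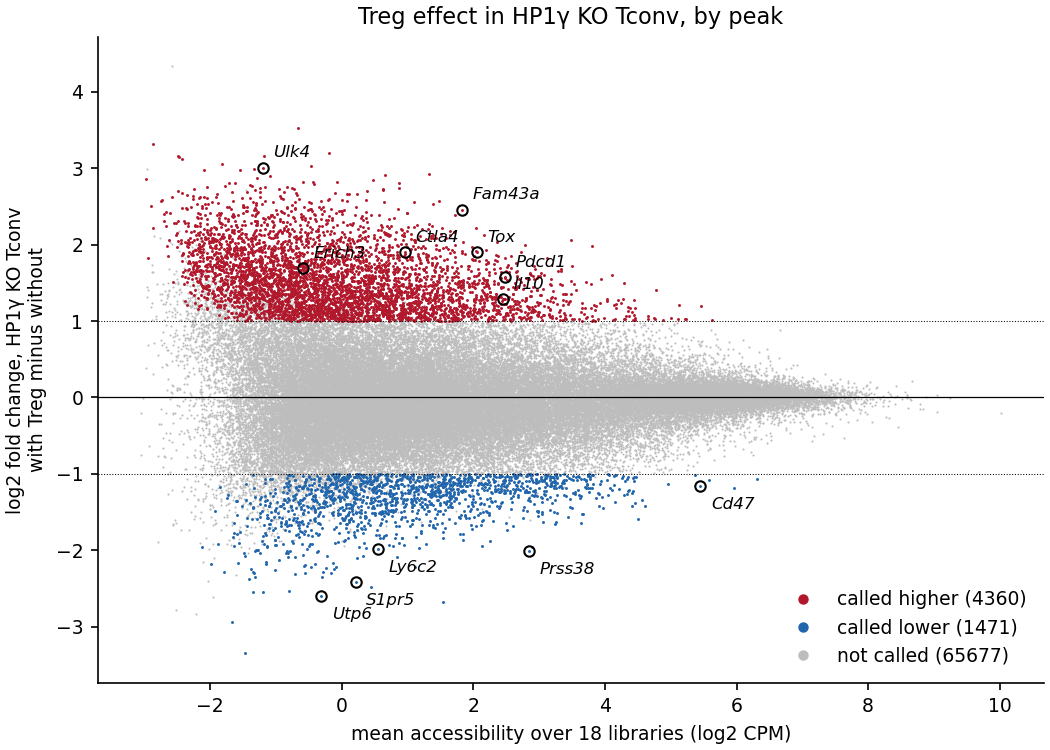
Log2 fold change of each of the 71508 peaks between HP1γ KO Tconv with and without Treg (y axis) against its mean log2 CPM over the 18 libraries (x axis). Peaks called higher (4360) and lower (1471) are coloured and the others are grey. The higher calls lie mostly at peaks of low mean level.

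Peaks called higher were short, weak and far from promoters. Their median width was 560 bp and their median mean level -0.23 log2 CPM, against 750 bp and 1.28 log2 CPM over all peaks, and the peaks called lower were between these at 610 bp and 0.83 log2 CPM. A TSS lay within 1 kb of 17.0% of the higher and 20.5% of the lower peaks, compared with 34% of all. Introns held 48.8% of the higher, 47.2% of the lower and 38.2% of all peaks, and intergenic DNA 22.2%, 21.2% and 17.0%. Put the other way, 740 (3.04%) of the 24327 peaks at a TSS were called higher and 301 (1.24%) lower, while 7.67% and 2.48% of the 47181 other peaks were. The median distance to a protein-coding TSS was 19411.5 bp for higher, 16038 bp for lower and 8357 bp for all peaks, and the median GC content 45.4%, 46.2% and 48.0%.

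DNA from the centres of called peaks is shown to let the sites be read beside their values. The first set holds the 4 gene-assigned peaks with the smallest adjusted p among those called higher, followed by 3 peaks of genes of anergy and exhaustion (Tox, Nrp1, Nt5e) that were picked after their values were seen because the central 200 bases hold an AP-1 match. All are on the plus strand of GRCm39, 5′ to 3′, and capitals mark matches on either strand to 7 motifs, in both sets alike. These are the letters TGANTCA of AP-1, GGAAAA of NFAT and AAAGGTCA of the NR4A receptors, which belong to factors induced or activated by T cell receptor signals. They are also the letters TGTGGTT read by RUNX proteins, then CAGGAAG for the ETS family, next GGTGTGA for T-box factors such as T-bet and Eomes, and lastly AGATAA for GATA factors. These positions are chr3:154389311-154389510 in an intron of Erich3, chr12:80064366-80064565 between genes near Zfp36l1, chrX:103857806-103858005 between genes near Magee2, chr1:178852791-178852990 in an intron of Smyd3, chr4:6930681-6930880 in an intron of Tox, chr8:129077701-129077900 in an intron of Nrp1 and chr9:88155401-88155600 between genes near Nt5e.
Erich3: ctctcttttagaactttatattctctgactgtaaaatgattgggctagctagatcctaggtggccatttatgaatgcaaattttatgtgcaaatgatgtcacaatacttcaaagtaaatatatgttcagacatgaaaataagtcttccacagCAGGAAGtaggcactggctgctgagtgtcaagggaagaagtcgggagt
Zfp36l1: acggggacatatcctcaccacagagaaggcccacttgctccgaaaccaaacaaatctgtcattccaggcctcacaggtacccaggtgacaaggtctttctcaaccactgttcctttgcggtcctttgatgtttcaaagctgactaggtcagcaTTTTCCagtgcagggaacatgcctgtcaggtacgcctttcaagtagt
Magee2: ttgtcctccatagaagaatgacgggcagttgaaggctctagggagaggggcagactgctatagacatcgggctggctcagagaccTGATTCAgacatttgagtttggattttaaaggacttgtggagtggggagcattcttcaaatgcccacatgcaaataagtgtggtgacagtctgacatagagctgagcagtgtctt
Smyd3: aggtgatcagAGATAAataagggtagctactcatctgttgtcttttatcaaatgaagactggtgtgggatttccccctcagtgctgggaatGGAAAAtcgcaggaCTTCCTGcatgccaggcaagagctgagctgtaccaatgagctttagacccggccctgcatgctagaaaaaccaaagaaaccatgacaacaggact
Tox: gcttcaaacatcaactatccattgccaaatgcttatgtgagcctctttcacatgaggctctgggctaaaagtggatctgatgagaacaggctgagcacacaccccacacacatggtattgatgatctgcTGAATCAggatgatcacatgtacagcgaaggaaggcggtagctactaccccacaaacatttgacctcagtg
Nrp1: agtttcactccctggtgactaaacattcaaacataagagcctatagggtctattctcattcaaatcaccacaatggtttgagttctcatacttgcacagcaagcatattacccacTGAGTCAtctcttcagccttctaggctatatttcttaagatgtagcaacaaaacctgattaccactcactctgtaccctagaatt
Nt5e: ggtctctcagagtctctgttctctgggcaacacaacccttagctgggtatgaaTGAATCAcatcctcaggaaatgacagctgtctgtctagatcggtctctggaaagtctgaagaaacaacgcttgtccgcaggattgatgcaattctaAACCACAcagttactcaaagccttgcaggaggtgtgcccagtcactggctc
The Magee2, Tox, Nrp1 and Nt5e windows hold an AP-1 match, and the Zfp36l1 and Smyd3 windows an NFAT match. Erich3 and Smyd3 also hold an ETS match, Smyd3 a GATA match and Nt5e a RUNX match. The log2 fold changes of the peaks around the 3 picked windows were 1.68 ± 0.26 (SE) for Tox, 2.10 ± 0.44 for Nrp1 and 1.48 ± 0.32 for Nt5e.

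The second set holds the 4 gene-assigned peaks with the smallest adjusted p among those called lower, followed by 3 picked after their values were seen for a RUNX match (Itgb1, Itga1, Gzmb). Capitals mark the same 7 motifs. They lie at chr1:75183096-75183295 in an intron near the start of Stk16, chr13:114030001-114030200 in an intron near Arl15, chr11:79762726-79762925 and chr6:52652496-52652695 at starts of non-coding genes whose nearest protein-coding genes are Utp6 and Hibadh, chr8:129380191-129380390 at a non-coding start near Itgb1, chr13:115315851-115316050 between genes near Itga1 and chr14:56503581-56503780 between genes near Gzmb.
Stk16: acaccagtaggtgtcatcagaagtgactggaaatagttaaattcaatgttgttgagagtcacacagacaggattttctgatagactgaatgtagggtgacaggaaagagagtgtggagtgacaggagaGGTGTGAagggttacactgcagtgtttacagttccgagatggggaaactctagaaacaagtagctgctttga
Arl15: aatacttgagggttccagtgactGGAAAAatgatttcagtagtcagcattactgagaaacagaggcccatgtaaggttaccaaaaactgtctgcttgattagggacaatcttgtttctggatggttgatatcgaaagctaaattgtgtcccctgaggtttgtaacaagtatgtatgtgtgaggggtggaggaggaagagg
Utp6: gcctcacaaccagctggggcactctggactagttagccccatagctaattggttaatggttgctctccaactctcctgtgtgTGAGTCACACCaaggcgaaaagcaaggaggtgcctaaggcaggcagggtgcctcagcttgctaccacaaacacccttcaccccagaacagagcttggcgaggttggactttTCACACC
Hibadh: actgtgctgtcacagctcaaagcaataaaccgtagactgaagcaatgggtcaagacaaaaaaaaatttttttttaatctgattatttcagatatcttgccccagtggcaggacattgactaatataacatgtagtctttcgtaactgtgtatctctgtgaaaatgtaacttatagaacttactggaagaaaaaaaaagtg
Itgb1: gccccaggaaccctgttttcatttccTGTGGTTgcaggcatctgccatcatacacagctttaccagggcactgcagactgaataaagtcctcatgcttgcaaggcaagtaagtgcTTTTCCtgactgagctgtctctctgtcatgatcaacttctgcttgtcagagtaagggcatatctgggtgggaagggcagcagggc
Itga1: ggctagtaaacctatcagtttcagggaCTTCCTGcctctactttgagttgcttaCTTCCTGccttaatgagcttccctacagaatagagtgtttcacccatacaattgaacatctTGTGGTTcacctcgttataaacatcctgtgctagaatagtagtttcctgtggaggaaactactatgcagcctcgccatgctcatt
Gzmb: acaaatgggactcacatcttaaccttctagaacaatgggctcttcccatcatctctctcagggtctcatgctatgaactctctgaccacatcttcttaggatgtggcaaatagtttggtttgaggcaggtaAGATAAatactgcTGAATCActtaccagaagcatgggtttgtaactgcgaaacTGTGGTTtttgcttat
T-box letters are present in the Stk16 window and at 2 places in the Utp6 window, the Hibadh window holds no match, and the Itga1 window holds 2 ETS matches beside its RUNX match. AP-1 letters also occur in the Utp6 window, where they overlap a T-box match, and in the Gzmb window, which also has a GATA match, and NFAT letters in the Arl15 and Itgb1 windows. The peaks around the 3 picked windows had log2 fold changes of -1.16 ± 0.23 (SE) for Itgb1, -1.61 ± 0.32 for Itga1 and -1.68 ± 0.37 for Gzmb.

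Among the 20 motifs counted, the letters of several T cell factors were unequally shared between the sites that opened and those that closed. Because promoters have their own sequence, the shares are given for the central 300 bases of the 47181 peaks with no TSS within 1 kb, on both strands, and a match is a description of the letters, not a bound site. The AP-1 letters, which Fos, Jun and Batf proteins bind, were in 32.3% (1171) of these peaks called higher, 9.91% (116) of those called lower and 15.3% of all. For NFAT, the calcium-dependent partner of AP-1 in T cell activation, the shares were 32.2%, 19.7% and 23.6%. A strict form of the NF-kB consensus was rarer, at 2.82%, 0.256% and 0.888%, and the letters of the NR4A nuclear receptors stood at 4.5%, 1.03% and 2.24%. The order was the opposite for ETS (15.4% of higher, 28% of lower and 23.0% of all) and for GATA (14.7%, 22.1% and 15.7%). RUNX and T-box letters were most frequent in the lower peaks too (22.6% and 10.9%), but the higher peaks (16.4% and 6.88%) lay slightly above all peaks (15.4% and 6.23%). A strict form of the CTCF core, which marks stable architectural sites, was in 0.249% of higher and 0.256% of lower peaks against 2.40% of all. Among the other motifs, TCF and LEF letters were in 9.50% of higher, 5.21% of lower and 6.74% of all peaks. The CRE letters TGACGTCA were in 1.22%, 0.427% and 0.619%, and a composite of AP-1 and IRF letters in 1.02%, 0.0855% and 0.318%. Smaller differences were seen for the E-box (18.4% of higher, 17.1% of lower and 17.5% of all), STAT (9.34%, 11.2% and 9.53%) and KLF (3.15%, 3.68% and 3.82%). Read from the side of the motif, 16.3% of the peaks with AP-1 letters were called higher against 6.13% of those without, and 3.64% with RUNX letters were called lower against 2.27% without. Motif classes overlap within peaks, the called peaks are weaker than the others, and the part of peak level and GC content in these shares was not tested.

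**Figure D2:**
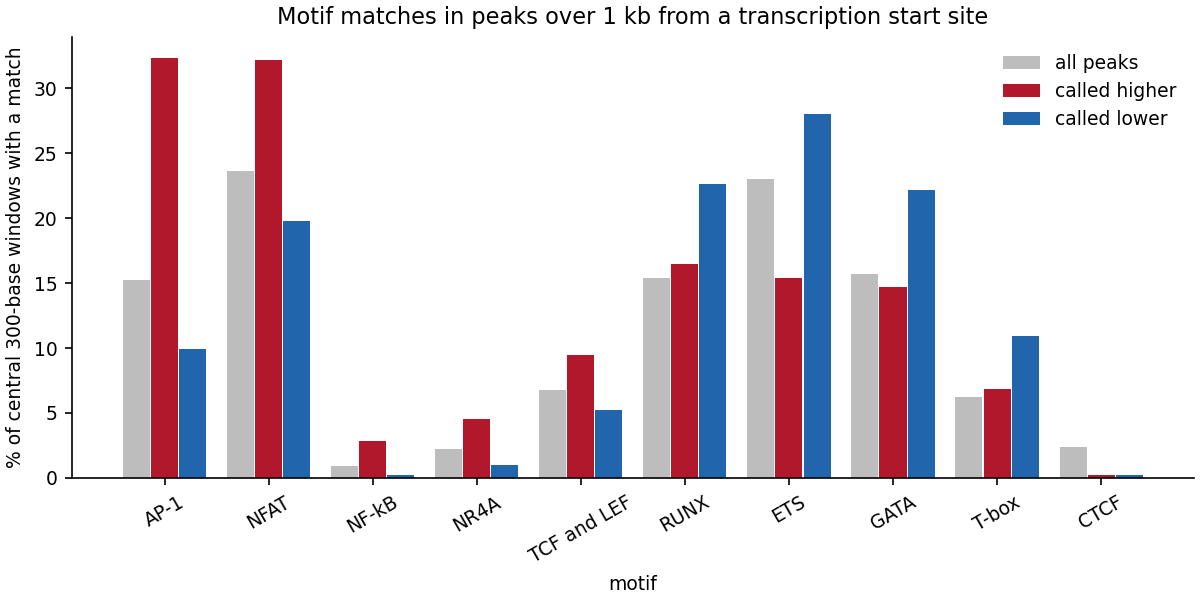
Percent of peaks with no TSS within 1 kb whose central 300 bases hold each of 10 of the 20 motifs counted, on either strand, for all tested peaks of this kind, those called higher and those called lower with Treg in HP1γ KO Tconv. AP-1 shows the widest gap, with 32.3% of higher, 9.91% of lower and 15.3% of all peaks.

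The peaks with the smallest adjusted p among those that rose lay mostly in introns or between genes, and 1 belonged to Ctla4, the receptor that competes with CD28 for its ligands. At the Ctla4 site (chr1:60941491-60942700, in annotated exonic sequence 5484 bp from a Ctla4 start) the level was 1.67, 2.16 and 1.88 log2 CPM in KO Tconv and 3.82, 3.54 and 4.0 with Treg. The 2 groups were far apart, and the log2 fold change was 1.9 ± 0.17 (SE, adjusted p = 9.89e-06, edgeR). The smallest adjusted p was in Erich3, with 0.48, 0.66 and 0.28 log2 CPM without and 2.21, 2.01 and 2.08 with Treg. Replicates were tight on both sides there, and the log2 fold change was 1.69 ± 0.15 (adjusted p = 1.52e-06). A peak 95123 bp from Zfp36l1, whose product promotes decay of cytokine mRNAs, had -0.88, 0.24 and -1.15 log2 CPM without and 2.13, 1.64 and 1.97 with Treg, a log2 fold change of 2.61 ± 0.25. The site near Fam43a was the highest of these with Treg, at 4.94, 4.24 and 4.81 log2 CPM against 2.39, 2.77 and 1.63. In the remaining 6 peaks of this group, at Magee2, Smyd3, Foxn2, Exoc4, Ulk4 and Iws1, the log2 fold change was 2.49, 2.44, 2.37, 2.60, 3.01 and 1.82.

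Sites that fell with the smallest adjusted p included the start of Cd47 and a site at Ly6c2. Cd47 encodes the surface protein that holds off phagocytes through SIRPα, and its TSS peak (chr16:49618511-49622560) had 5.72, 5.31 and 5.37 log2 CPM in KO Tconv and 4.13, 4.51 and 4.32 with Treg. The groups were separate, with a log2 fold change of -1.16 ± 0.15 (SE, adjusted p = 0.000139, edgeR). Ly6c2 encodes the Ly6C antigen carried by effector and memory T cells, and at 626 bp from its start the level was 1.72, 1.45 and 1.94 log2 CPM without and -0.83, -0.07 and 0.34 with Treg. Its log2 fold change was -1.99 ± 0.25. The intronic peak 2167 bp from the start of Stk16, a kinase gene, had 1.01, 1.01 and 1.24 log2 CPM without and -1.95, -0.62 and -0.65 with Treg. Replicate 1 was the lowest library with Treg at this site, at the Utp6 site (-1.70 against -0.41 and -0.25 log2 CPM) and at Ly6c2. The other log2 fold changes of this group were -2.60 at Utp6, -2.01 at Arl15, -2.08 at Hibadh, -2.01 at Prss38, -1.72 at Slc5a11, -2.07 at Lhfpl6 and -1.61 at Itpr2.

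**Figure D3:**
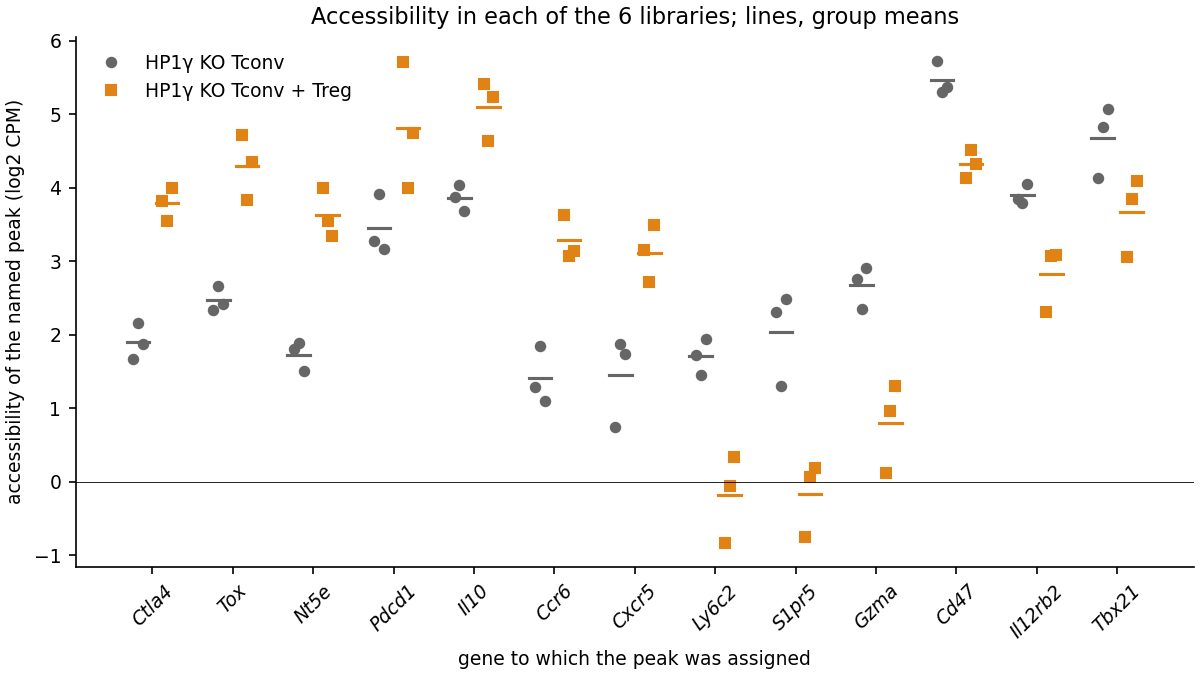
Log2 CPM of 13 named peaks in each of the 3 HP1γ KO Tconv libraries and the 3 with Treg, 1 point per library and lines at the group means. At the 7 peaks that rose (Ctla4, Tox, Nt5e, Pdcd1, Il10, Ccr6, Cxcr5) the points with Treg lie above those without, and at the 6 that fell (Ly6c2, S1pr5, Gzma, Cd47, Il12rb2, Tbx21) below them.

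Several loci moved at many sites at the same time. Tox, the factor best known from exhausted T cells, had the most peaks called higher, 16 of its 37, with a positive log2 fold change at 35 and a median of 0.97 over all 37. Phactr2, a regulator of protein phosphatase and actin, rose at 13 of 17 peaks with all 17 positive (median 1.5), Eea1, a tether of early endosomes, at 13 of 20 (median 1.14), Celf2, an RNA-binding splicing factor, at 13 of 45 (median 0.34) and Phlpp1, a phosphatase of AKT, at 12 of 21 (median 1.18). On the side that fell, the integrin subunit gene Itgb1 was called lower at 7 of 17 peaks (median -0.64) and the semaphorin receptor gene Plxnc1 at 7 of 23 (median -0.91). Cox10, a gene of heme A synthesis, fell at 6 of 25 (median -1.06), Arl4c at 6 of 31 (median -0.79) and Cd47 at 6 of 36 (median -0.53), while Arhgap26 had 6 lower and 2 higher calls among 40 peaks. Peaks of a locus are not independent of each other, and the background was 6.10% called higher and 2.06% lower.

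**Figure D4:**
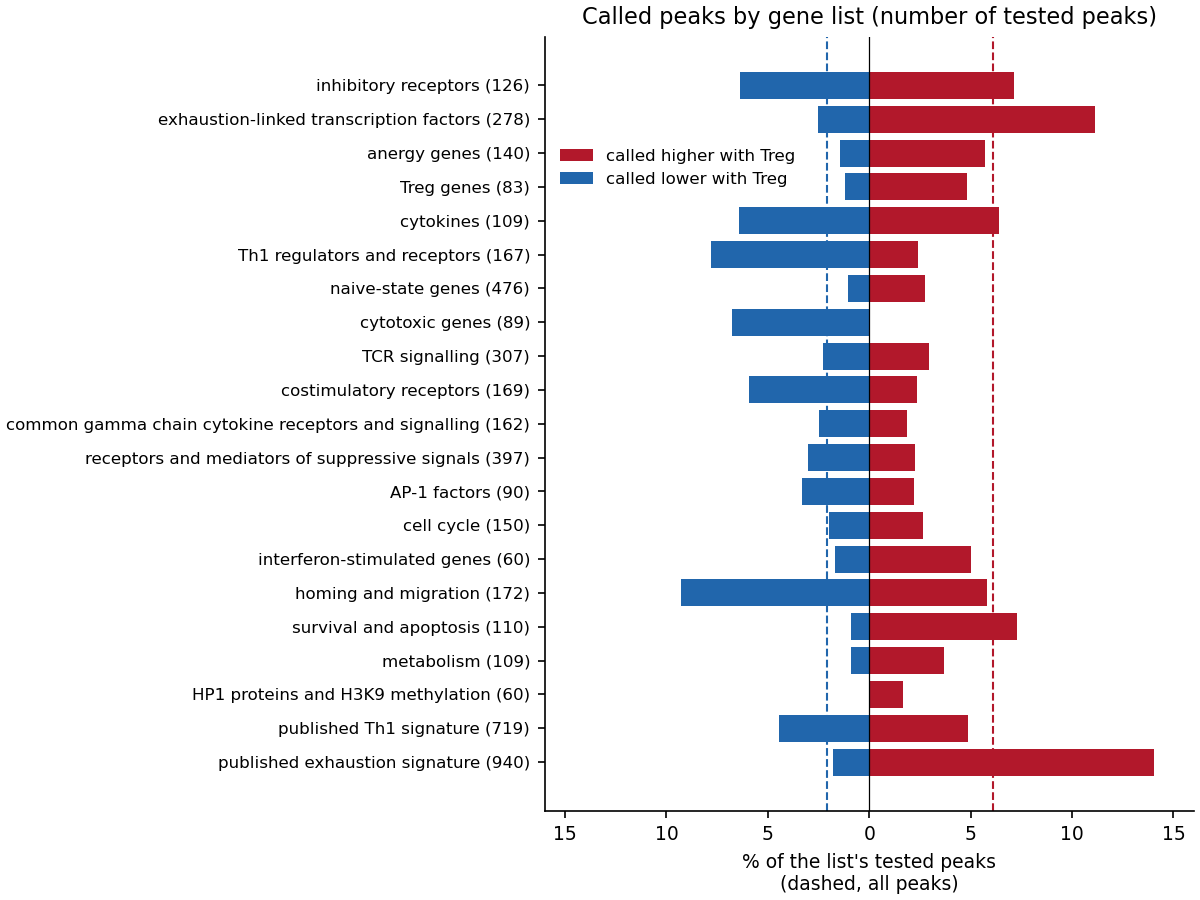
Percent of the peaks assigned to each gene list that were called higher and lower with Treg in HP1γ KO Tconv. Dashed lines give the share over all tested peaks, 6.10% higher and 2.06% lower, and the 2 lists marked as published are the gene sets the study curated from publications.

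Counts over gene lists rested on the assignment of distal peaks. With the nearest TSS of any gene, non-coding ones included, the exhaustion factors described below had 14 peaks higher and 2 lower in place of 31 and 7, and with a limit of 10 kb they had 2 and 1. For the Th1 genes, which had 4 and 13, these counts were 0 and 7 and 1 and 8. The lists were also counted with 1 of the 6 libraries left out. Calls over all peaks moved in the same fits, and the list counts below are to be read against them. There were 1719 higher and 413 lower without KO Tconv with Treg replicate 1, and 6673 and 2665 without its replicate 2. Without KO Tconv replicates 1, 2 and 3 in turn there were 2942 and 853, 5019 and 1732, and 2756 and 1254. With only the 6 libraries in the fit there were 501 and 106, and with GC offsets 4964 and 1162. Under GC offsets the balance of higher to lower calls shifted for some lists with few calls, to 8 and 5 for cytokines, 11 and 4 for T cell receptor signalling, 4 and 3 for γ-chain receptors and 6 and 0 for Treg genes.

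Inhibitory receptor genes were called in both directions. Of 15 such genes with 126 peaks, 5 had a peak called higher (9 peaks: Ctla4 3, Pdcd1 3, and 1 each at Cd200, Btla and Tigit) and 4 a peak called lower (8 peaks: Klrg1 4, Lilrb4a 2, Vsir 1 and Cd96 1), so that 7.14% of the peaks were higher and 6.35% lower against 6.10% and 2.06% of all, and the median over the list was 0.03 against -0.02 over all peaks. The best peak of Pdcd1, which encodes PD-1, had 3.27, 3.92 and 3.17 log2 CPM in KO Tconv and 5.71, 3.99 and 4.74 with Treg. Replicate 2 with Treg was barely above the highest library without, and the log2 fold change was 1.57 ± 0.33 (SE, adjusted p = 0.00380, edgeR), while the peak at the Pdcd1 TSS differed by 0.68 and stayed under the fold needed for a call. Tigit, a receptor for CD155, had 0.67, 1.59 and 0.93 log2 CPM at its best peak without and 2.86, 1.9 and 2.53 with Treg (log2 fold change 1.46 ± 0.27). At Cd200 the log2 fold change was 1.57 and at Btla, a receptor that binds HVEM, it was 1.06, both with separate groups. Klrg1, an inhibitory lectin of terminal effector cells, went the other way, with 3.39, 3.57 and 3.77 log2 CPM without and 2.51, 2.72 and 2.51 with Treg. No call was made at Lag3, whose TSS peak had 4.01, 4.72 and 4.52 log2 CPM without and 5.07, 4.49 and 4.99 with Treg (log2 fold change 0.44, adjusted p = 0.0967), or at Havcr2, which encodes TIM-3 (0.69, adjusted p = 0.101). The list had 4 peaks higher and 2 lower when KO Tconv with Treg replicate 1 was left out, and 12 and 13 without its replicate 2. The balance also moved with the scaling, to 10 higher and 4 lower with loess offsets, 11 and 5 with GC offsets and 7 and 4 with DESeq2, and with only the 6 libraries in the fit it was 3 and 0.

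Transcription factors linked to exhaustion had the most higher calls of the functional lists, 31 of 278 peaks (11.2%, against 6.10% of all peaks, with 7 lower and a median of 0.07). This rank was not kept in every setting. Naive-state genes had more with only the 6 libraries in the fit (4 against 3) and with the limit of 10 kb (5 against 2). Of the 31, 16 were at Tox, and without its 37 peaks the share called higher was near that of all peaks. The best Tox peak, in an intron 48603 bp from the start, had 2.34, 2.66 and 2.42 log2 CPM in KO Tconv and 4.72, 3.83 and 4.35 with Treg. This was a log2 fold change of 1.9 ± 0.24 (SE, adjusted p = 0.000144, edgeR), whereas the peak at the Tox TSS differed by 0.35 and was not called. Other members with higher calls were Tox2 (4 peaks), Nfatc1 (4), Batf, an AP-1 factor (3), and Egr2 and Nr4a2 (1 each), with a log2 fold change of 2.16 at the best Tox2 peak. Irf4, which acts with Batf, had 1 peak higher (log2 fold change 1.25) and 1 lower. Id2, a repressor of E proteins that favours effector cells, had 2.22, 1.89 and 2.44 log2 CPM without and 0.93, 0.98 and 1.13 with Treg at a peak that fell. Eomes, Ikzf3 and Bhlhe40 also had 1 lower call each. Without KO Tconv with Treg replicate 1 the list had 15 peaks higher and 2 lower, without KO Tconv replicate 3 it had 20 and 3, and with only the 6 libraries in the fit 3 higher and 0 lower.

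Genes of anergy were called higher at 8 of 140 peaks (5.71%, against 6.10% of all peaks) and lower at 2 (median 0.07), so the list as a whole was near the background. Leaving out KO Tconv with Treg replicate 1 left 3 and 0, and over the 6 libraries left out in turn the counts were 3 to 12 higher and 0 to 2 lower. Nt5e, which encodes CD73, the ectoenzyme that makes adenosine, had 1.80, 1.89 and 1.5 log2 CPM at an intronic peak without and 4.0, 3.55 and 3.34 with Treg. No library overlapped, and the log2 fold change was 1.99 ± 0.20 (SE, adjusted p = 2.84e-05, edgeR). Ndrg1 rose with a log2 fold change of 1.55. Nrp1, a semaphorin receptor also found on Treg, rose by 2.10 on the log2 scale, but its replicate 2 with Treg, at -0.48 log2 CPM, lay within the libraries without (-1.25 to -0.41). The ubiquitin ligase genes Itch and Cblb had 1 lower call each. Izumo1r, which encodes folate receptor 4, had no call (log2 fold change 0.29, adjusted p = 0.186).

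Genes that mark Treg themselves were called at 4 of 83 peaks higher (4.82%, against 6.10% of all) and 1 lower (median -0.07). These few calls had no stable direction, with 0 higher and 3 lower without KO Tconv replicate 3, 10 and 1 without KO Tconv replicate 2 and 1 and 0 without KO Tconv with Treg replicate 1. Foxp3 was not higher in the cells that had been with Treg. Its TSS peak had 1.19, 1.59 and 1.53 log2 CPM without and 1.14, 0.92 and 0.96 with Treg, a log2 fold change of -0.43 (adjusted p = 0.137, edgeR). The higher calls were 2 at Il2ra, the gene of the high-affinity IL-2 receptor chain, and 2 at Ikzf2, which encodes Helios. The best Il2ra peak had -2.86, 0.13 and -1.68 log2 CPM without and 0.83, -0.51 and 1.40 with Treg, so its groups overlapped. Gpr83 fell (log2 fold change -1.04).

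Cytokine genes were called in both directions, with 7 peaks higher and 7 lower of 109 (6.42% each, against 6.10% and 2.06% of all peaks, median -0.11). They had 4 higher and 2 lower without KO Tconv with Treg replicate 1, 12 and 11 without its replicate 2, and 2 and 0 with only the 6 libraries in the fit. Il10, the gene of a suppressive cytokine, had 3.87, 4.03 and 3.68 log2 CPM without and 5.41, 4.64 and 5.23 with Treg at a peak 18010 bp from its start. The groups were apart, with a log2 fold change of 1.28 ± 0.19 (SE, adjusted p = 0.000349, edgeR), while those at the Il10 TSS overlapped and did not give a call (0.69). Il22, a cytokine that acts on epithelium, rose by 1.28 at a nearby peak and Il21, the follicular helper cytokine, by 1.5. Ifng had 3 peaks higher and 2 lower, and its TSS peak had 5.60, 5.97 and 6.12 log2 CPM without and 5.70, 5.66 and 5.83 with Treg, with no call. Il2, the T cell growth factor gene, had no call either. At its TSS the level was 5.23, 4.10 and 5.07 log2 CPM without and 3.58, 4.69 and 3.84 with Treg, and replicate 2 of each group crossed over (log2 fold change -0.79, adjusted p = 0.0418). For Tnf the TSS peak differed by -0.24 (adjusted p = 0.0631). Genes of type 2 cytokines, Il4, Il5 and Il13, had 1 lower call each, as did Csf2, and Il3 had 1 higher call.

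A short list of 15 Th1 regulators and receptors had 13 of 167 peaks called lower and 4 higher (7.78% and 2.40%, against 2.06% and 6.10% of all peaks, median -0.35). The longer Th1 gene set given further on did not show this balance, with 35 higher and 32 lower calls at 719 peaks. Il12rb2, a chain of the IL-12 receptor, was called lower at 5 of its 14 peaks and higher at 1. Its TSS peak had 3.85, 3.78 and 4.05 log2 CPM without and 2.31, 3.07 and 3.08 with Treg, which were separate (log2 fold change -1.09, adjusted p = 0.00223, edgeR). Ifngr1, the ligand-binding chain of the interferon-γ receptor, fell at 3 peaks, the best by -1.87, and Il18rap, an IL-18 receptor chain, at 2, the best by -1.41. Tbx21, which encodes the Th1 master factor T-bet, had 4.13, 4.82 and 5.07 log2 CPM without and 3.06, 3.85 and 4.09 with Treg at an upstream peak. This difference of -1.05 ± 0.34 (SE, adjusted p = 0.0444) was called in 9 of the 22 other settings, and the Tbx21 TSS peak was not called (-0.14). Without KO Tconv with Treg replicate 1 the list had 4 peaks lower and 3 higher, without its replicate 2 it had 25 and 6, and with only the 6 libraries in the fit 0 and 0.

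Cytotoxic genes had lower calls and 0 higher calls among 89 peaks, 6 peaks at 4 genes (6.74% lower, against 2.06% lower and 6.10% higher of all peaks, median -0.20). Gzma, the gene of granzyme A, had 2.76, 2.35 and 2.91 log2 CPM without and 0.12, 0.96 and 1.31 with Treg. The libraries were well apart, with a log2 fold change of -1.95 ± 0.28 (SE, adjusted p = 0.000275, edgeR). Gzmb, the gene of granzyme B, fell by -1.68 on the log2 scale at a non-coding start 13444 bp away, where replicate 2 with Treg (2.15 log2 CPM) lay just under replicate 2 without (2.2). Klrd1, which encodes CD94, was called at -1.0 with overlapping groups, and Fasl had 1 lower call. NK markers had 4 lower and 0 higher calls among 27 peaks (14.8% lower, against 2.06% of all), 3 at Klrb1c, which encodes NK1.1, and 1 at Eomes, and the NK gene Ncr1 had no assigned peak. With 1 library left out the NK markers had 1 to 4 lower and 0 to 2 higher calls, and with only the 6 libraries in the fit 0 and 0. On the cytotoxic list 3 lower and 0 higher calls were made without KO Tconv with Treg replicate 1, and 3 to 9 lower and 0 to 1 higher over all 6 libraries left out in turn. With only the 6 libraries in the fit this list had 1 lower and 0 higher.

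Homing receptors had 16 of 172 peaks called lower (9.30%, against 2.06% of all) and 10 called higher (5.81%, against 6.10% of all), with a median of -0.20. Cxcr5 and Cxcr4, receptors that guide cells to follicles and bone marrow, rose at 4 and 3 peaks, and Ccr6, a receptor for CCL20, at 2. The Cxcr5 TSS peak had 0.74, 1.87 and 1.73 log2 CPM without and 3.14, 2.71 and 3.5 with Treg (log2 fold change 1.61, adjusted p = 0.000367, edgeR). The best Ccr6 peak had 1.29, 1.85 and 1.09 without and 3.63, 3.08 and 3.14 with Treg. Neither had overlapping groups. S1pr5, a sphingosine phosphate receptor of circulating effector and NK cells, fell at 2 of its 3 peaks, from 2.31, 1.30 and 2.48 log2 CPM to -0.75, 0.06 and 0.19 at the best (log2 fold change -2.41, adjusted p = 0.000165). The integrin genes Itgb1 (7 peaks) and Itga1 (4), which together encode a collagen receptor, also fell, the best Itga1 peak by -2.19. Ccr2 had 2 lower calls and Cx3cr1, another receptor of effector cells, 1. The list had 4 peaks higher and 5 lower without KO Tconv with Treg replicate 1, and 4 and 17 without KO Tconv replicate 1. With only the 6 libraries in the fit it had 3 higher and 2 lower, where all peaks had 501 higher and 106 lower calls of 70899.

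Costimulatory receptor genes were called lower at 10 and higher at 4 of 169 peaks (5.92% and 2.37%, against 2.06% and 6.10% of all peaks, median -0.15). With KO Tconv with Treg replicate 1 left out they had 2 lower and 1 higher, with its replicate 2 left out 18 and 4, and with only the 6 libraries in the fit 1 and 1. Cd226, the activating competitor of TIGIT for CD155, was called lower at 5 of 21 peaks, the best by -2.09, and Cd40lg, the helper ligand for B cells, at 2. Slamf1 also fell at 2. Icos, a receptor of follicular helper cells, rose from 2.49, 2.50 and 2.12 log2 CPM to 3.47, 3.94 and 3.66 at a distal peak (log2 fold change 1.36, adjusted p = 0.000179, edgeR), with no overlap. Slamf6 rose by 1.15.

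Survival and apoptosis genes were called higher at 8 of 110 peaks (7.27%, against 6.10% of all) and lower at 1. There were 4 higher and 1 lower without KO Tconv with Treg replicate 1, and 3 and 0 with only the 6 libraries in the fit. Pmaip1, which encodes the BH3-only protein NOXA, rose at 5 of 16 peaks, the best from 0.81, 2.18 and 1.79 log2 CPM to 4.29, 3.08 and 3.83 (log2 fold change 2.18, adjusted p = 0.000183, edgeR). Bcl2l11, the gene of BIM, rose at 2 peaks and the death receptor gene Fas at 1, with best log2 fold changes of 1.31 and 1.08. The lower call was at Bbc3, which encodes PUMA, a further BH3-only protein.

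Genes of signal reception showed few calls. Those of the common γ-chain cytokine receptors and their signalling had 3 peaks higher and 4 lower of 162 (1.85% and 2.47%, against 6.10% and 2.06% of all peaks, the lower share being near the background), and 0 to 5 higher and 2 to 6 lower with 1 library left out. Among them was Il2rb, the β chain of the IL-2 and IL-15 receptors, which fell from 3.53, 3.36 and 3.79 log2 CPM to 1.25, 2.59 and 2.42 (log2 fold change -1.45), and Stat5a, its signal transducer (-1.07). Receptors and mediators of suppressive signals had 9 higher and 12 lower calls among 397 peaks (2.27% and 3.02%), 3 and 1 without KO Tconv with Treg replicate 1, and 25 and 20 without its replicate 2. With other scalings higher calls outnumbered lower ones, 15 to 8 with GC offsets and 13 to 8 with loess offsets, so the list has no settled direction. Smad3, a transducer of TGFβ, fell at 5 of 30 peaks and Entpd1, which encodes the ectonucleotidase CD39, at 1 (-1.51), while Pde4b, a phosphodiesterase of cAMP, rose at 3. T cell receptor signalling genes had 9 higher and 7 lower calls of 307, or 2.93% and 2.28%, the latter near the background (2 and 4 without KO Tconv with Treg replicate 1, 3 and 7 without KO Tconv replicate 3), with Prkcq, which encodes protein kinase C θ, at 1.66 and 4 lower peaks at Nfatc2.

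Naive-state genes had 13 higher and 5 lower calls of 476 peaks (2.73%, against 6.10% of all, and 1.05%, median -0.14). The balance depended on single libraries, with 7 and 0 without KO Tconv with Treg replicate 1, 20 and 18 without its replicate 2 and 7 and 7 without KO Tconv replicate 3. Id3, an E protein inhibitor of naive, memory and follicular helper cells, rose from 2.87, 2.87 and 2.57 log2 CPM to 4.38, 4.04 and 3.97 (log2 fold change 1.41, adjusted p = 5.54e-05, edgeR), and Foxp1, a quiescence factor, at 5 of 90 peaks with a best log2 fold change of 1.42. Il7r, the IL-7 receptor gene, fell at 2. For the 5 lists that follow, the higher shares were below the 6.10% of all peaks. AP-1 factor genes themselves had 2 higher and 3 lower calls of 90 peaks (2.22% and 3.33%, against 2.06% lower of all), cell cycle genes 4 and 3 of 150 (2.67% and 2.0%), interferon-stimulated genes 3 and 1 of 60 (5.0% and 1.67%), and metabolic genes 4 and 1 of 109 (3.67% and 0.917%), which included Hif1a, the hypoxia factor (1.22). Genes of HP1 proteins and H3K9 methylation had 1 higher call (1.67%), at Lbr, and 0 lower calls of 60. These small counts moved with the library left out, to 13 higher for the cell cycle and 11 for metabolism without KO Tconv with Treg replicate 2 and to 1 and 2 without its replicate 1.

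Th1 and exhaustion gene sets that the study curated by hand, with a publication cited for each gene, gave counts over longer lists. The exhaustion set had 940 peaks at 96 of its 102 genes, of which 132 (14%) were called higher and 17 (1.81%) lower, at 42 and 10 genes, against 6.10% and 2.06% of all peaks, and its median log2 fold change was 0.13. The Th1 set had 35 higher and 32 lower calls among 719 peaks (4.87% and 4.45%, median -0.15), at 19 genes each. When KO Tconv with Treg replicate 1 was left out, the exhaustion set had 50 higher and 3 lower calls, and with only the 6 libraries in the fit 16 and 0. Calls over all peaks also fell in these fits, to 1719 higher of 71508 and 501 of 70899. By the nearest TSS of any gene it had 48 and 7, and within 10 kb 40 and 6. The Th1 set had 36 higher and 21 lower calls with GC offsets, 19 and 11 without that replicate and 47 and 55 without replicate 2 of the same group.

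The same peaks were then read in WT libraries, which share no library with the KO comparison. In both genotypes, at each replicate number, the library with Treg carries a higher library number than the one without. The part of this shared order in the values below was not tested. Treg exposure of WT Tconv gave 98 calls (0.137%), of which 16 were among the peaks called higher in KO, all higher, and 12 among those called lower, all lower. Of the peaks called higher in KO, 94.5% had a positive log2 fold change in WT (80.3 to 96.7% over the other settings) against 53.1% of all peaks. The median in WT was 0.81 (0.44 to 0.96 over the other settings) against 0.03. Of those called lower in KO, 86.1% were negative in WT (72.3 to 94.0%) against 46.9% of all, with a median of -0.37 (-0.53 to -0.22). The KO medians of 1.47 and -1.26 were used to choose the peaks and are not set against these. The WT count depended on the fit, since with the replicate number as a block 3641 peaks were called in WT. Libraries of the same number deviated together in WT, but whether the numbers pair them is not settled. The split of the WT calls moved with the scaling, from 48 higher and 50 lower to 170 and 31 with library size alone, 65 and 177 with GC offsets and 198 and 695 with loess offsets. Without WT Tconv with Treg replicates 1, 2 and 3 in turn the WT count was 1, 640 and 1, and without WT Tconv replicates 1, 2 and 3 it was 15, 1 and 865. A call in KO and none in WT is no difference between the genotypes, and the test of the difference itself gave 1 call (0.00140%, with 9150 at an unadjusted p under 0.05), against 799 by DESeq2, 0 by limma, 285 without KO Tconv with Treg replicate 2 and 10 without WT Tconv replicate 3. The call itself was kept in 10 of 28 alternatives. Peaks described above that were also called in WT included Erich3 (log2 fold change 1.91, adjusted p = 0.00117, edgeR), Magee2 (2.51, 0.0411) and Prss38 (-1.09, 0.0373). No WT call was made at Ctla4 (1.07, adjusted p = 0.0968), Tox (1.48, 0.0873), Nt5e (0.97, 0.0968), Cd47 (-0.65, 0.0522) or Gzma (-0.74, 0.116), nor at Lhfpl6 (-0.08, 0.903), Arl15 (-0.23, 0.536) or Il10 (0.48, 0.302). With the replicate number as a block, which assumes that the numbers pair the WT libraries, Ctla4 (1.08, adjusted p = 0.0319, edgeR) and Tox (1.42, 0.0108) were called. Nt5e (0.95, 0.0251), Cd47 (-0.69, 0.0126) and Gzma (-0.77, 0.0406) then passed the test but not the fold needed for a call, while Lhfpl6 (0.844), Arl15 (0.648) and Il10 (0.195) did not pass it.

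Library by library, the median level of the peaks called higher was -0.14, 0.63 and 0.11 log2 CPM in KO Tconv and 2.12, 0.96 and 1.61 with Treg. These 6 libraries chose the peaks. In WT, which did not, it was -0.67, -0.62 and -0.23 without and 0.28, 0.12 and 0.58 with Treg, so the WT libraries were separate as well. Naive cells were lower, with -0.77, -0.89 and -1.68 in KO and -1.70, -2.18 and -2.16 in WT. For the peaks called lower, the medians were 1.73, 1.27 and 1.49 log2 CPM in KO Tconv and -0.35, 0.55 and 0.42 with Treg. WT Tconv had 2.00, 1.87 and 1.76 and WT Tconv with Treg 1.34, 1.77 and 1.30, where replicate 2 with Treg lay just above replicate 3 without, and naive libraries of both genotypes had 0.23 to 0.44. Replicate 1 of KO Tconv with Treg was the most extreme of its group on both sides, and replicate 2 the closest to KO Tconv in the peaks that rose.

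**Figure D5:**
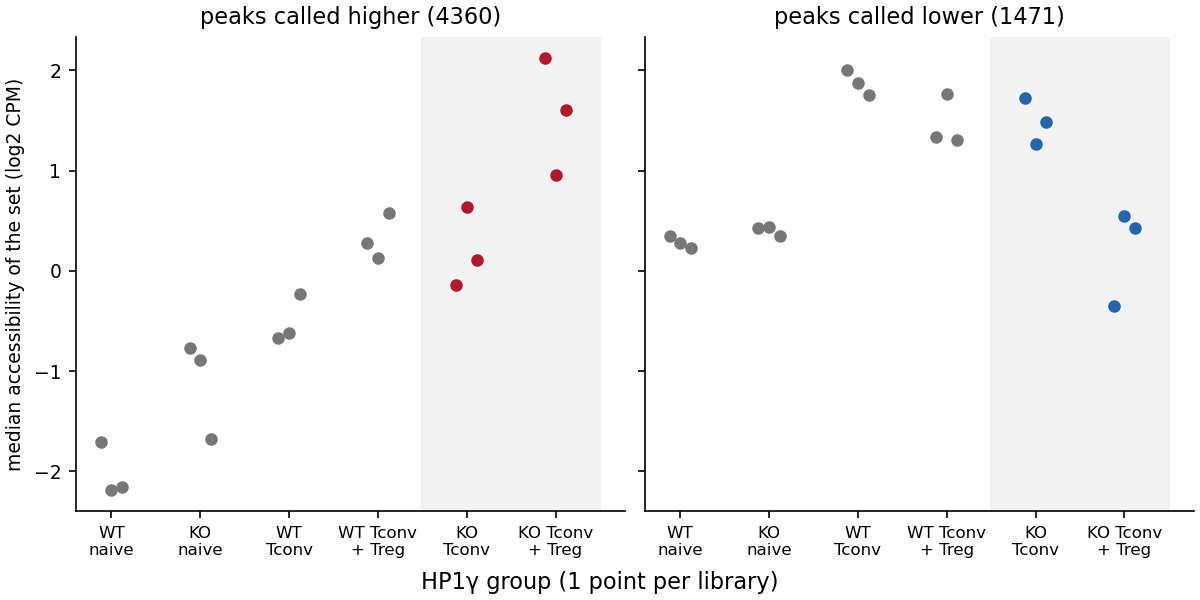
Median log2 CPM of the 4360 peaks called higher and the 1471 called lower with Treg in HP1γ KO Tconv, in each of the 18 libraries. The 6 KO Tconv libraries chose the peaks; in WT the libraries with Treg lie above those without for the first set (0.12 to 0.58 against -0.67 to -0.23) while for the second set the 2 ranges overlap (1.30 to 1.77 with Treg, 1.76 to 2.00 without).

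Both sets held more peaks that were higher in activated than in naive WT cells than all peaks did. Between WT naive cells and WT Tconv, 24.5% of all peaks were called higher and 22.0% lower. Of the peaks that rose with Treg in KO cells, 2129 (48.8%) were among those higher in WT Tconv than in naive cells and 540 (12.4%) among those lower, and of the peaks that fell with Treg 852 (57.9%) and 127 (8.63%). The median log2 fold change of activation was 1.73 and 1.62 for the 2 sets against 0.08 for all peaks.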

How the data were processed

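The file used was the deposited table of raw counts, in which the authors gave whole-number reads per consensus peak and applied no scaling. As the methods of the study describe, trimmed reads (Trim Galore 0.6.7) were aligned to GRCm39 with duplicates and poor alignments removed, peaks were called per sample with HMMRATAC and merged, and overlaps were counted with featureCounts 2.0.3, so neighbouring peaks can share reads. Of 71512 intervals, 3 without width were left out. All 36 columns matched a sample by name, and 0 were left unused.

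From these counts, peaks were filtered with filterByExpr, scaled by TMM and tested with edgeR 4.0.16 under R 4.3.3 (quasi-likelihood F test, two-sided) in 1 fit of the 18 HP1γ libraries (6 groups of 3), with Benjamini-Hochberg adjustment over 71508 peaks. Log2 CPM used a prior count of 2, and the biological coefficient of variation was 22.2%. Precision is limited by 19.4 to 90.3 M reads per library. Peaks were assigned to the nearest protein-coding TSS within 100 kb (GENCODE vM39), so a peak may act on another gene, and genes that overlap or share a start cannot be told apart. Sequence came from the GRCm39 genome.

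The gene lists, named genes and comparison were chosen with earlier results of these data known. Named genes were the 10 called, non-overlapping peaks with the smallest adjusted p per direction (1 per gene), the 5 genes with most called peaks per direction and those tied with them, up to 4 genes per list, those the study's text names, and the 5 smallest p of the difference between genotypes. Some genes that meet this rule are not reported here. Whether a replicate number pairs libraries was checked on their deviations from the group means. Between libraries of the same number, with and without Treg, these correlated at 0.29, 0.20 and 0.23 for WT and -0.05, -0.27 and -0.13 for KO. Between libraries of unlike number the correlation was -0.22 to 0.01 for WT but reached 0.29 and 0.38 for KO. Values as high as the WT ones thus also arose without a shared number, so whether the numbers pair libraries is not settled. Alternatives included DESeq2 1.42.0, limma 3.58.1, other scalings, filters and covariates, and leaving out each library. The fit was tested on simulated data. Figures used matplotlib 3.10.9.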

Additional observations from a re-analysis of the deposited data

Results flagged for a closer look

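The Treg effect differed between the genotypes at 1 peak, under some settings, by a test of the difference itself (edgeR, interaction term). This peak lies in an intron of Trpm6, the gene of a magnesium channel, at chr19:18743671-18744330. In KO it had 2.01, 1.71 and 1.38 log2 CPM without and 3.31, 2.83 and 3.29 with Treg, and in WT 3.14, 2.66 and 2.16 without and 1.49, 1.94 and 2.07 with Treg. The log2 fold change was 1.46 in KO and -0.95 in WT, a difference of 2.42 ± 0.34 (SE, adjusted p = 0.0300). The call was kept in 10 of 28 alternatives, over which the adjusted p ran from 0.000156 to 0.653 and the difference from 1.98 to 2.69. It was lost with the replicate block (0.392), with only the groups compared (0.615), with limma (0.0710) and with library size alone (0.0934), and without each of 9 of the 12 libraries in turn. Other peaks with a small p, at Prune2 (difference 2.85, adjusted p = 0.162) and Rasgef1a (-1.42, 0.184), did not pass.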

How the results depend on the processing

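The calls in KO, 5831, stayed within 1.5 times under 13 of 22 alternatives, among them other scalings, no filter, DESeq2 (4678), limma (4429), depth and TSS share as covariates and autosomal peaks. They came to 3356 with the earlier quasi-likelihood estimator of edgeR, an alternative chosen after seeing the data, to 607 with only the groups compared in the fit, 1304 with low against high library number as a block, 358 with replicates 2 and 3 only and 2132 to 9338 when 1 library was left out. With the replicate block they fell to 0 (12951 at an unadjusted p under 0.05) and with the block and GC offsets to 129. Libraries with the same number did not deviate together in KO, but this does not settle whether the numbers pair them. Replicate 1 also carries lower library numbers. The 38 called peaks named by adjusted p, by locus, by the study's text or by the genotype difference, which leaves out most of those named for a list only, had the same direction in every alternative, and 30 stayed called with only the groups compared, 21 with replicates 2 and 3 only, 35 without KO Tconv with Treg replicate 1 and 0 with the replicate block. The cause of these changes was not tested, except that fewer libraries leave fewer degrees of freedom.

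In WT the 98 calls became 201 with library size alone, 893 with loess offsets, 242 with GC offsets, 686 with the earlier estimator, 2329 with DESeq2, 1069 with limma, 3641 with the replicate block, 3792 with the block and GC offsets, 1 with depth and 1007 with TSS share as a covariate, 0 with only the groups compared (11492 at an unadjusted p under 0.05), with the library number as a block and with replicates 2 and 3 only, and 1 to 865 without 1 library. The difference between the genotypes, 1 call (9150 at an unadjusted p under 0.05), gave 8 with loess offsets, 799 with DESeq2, 114 with TSS share and 0 with library size alone, the earlier estimator, limma, only the groups compared, the replicate block with or without GC offsets, depth, the library number or replicates 2 and 3 only, and 0 to 285 without 1 library. The Trpm6 difference was 1.98 to 2.69 throughout. Activation in WT, 33226 calls, moved little (31996 to 34886). Depth limits peaks of low level most.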

Other observations

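Called peaks were spread over the chromosomes, with the share called higher from 4.23% on chromosome 17 to 8.08% on chromosome 18 and the share called lower from 1.43% on chromosome 4 to 2.79% on chromosome 12. Peaks beyond 100 kb of a protein-coding TSS, which entered no gene count, made up 15.5% of the peaks called higher, 12.7% of those called lower and 7.49% of all.

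Genes of other blood lineages also held called peaks, against 6.10% called higher and 2.06% called lower of all peaks. Over whole lists, B cell markers had 2 of 18 peaks higher and 0 lower, and myeloid markers 4 of 27 higher and 3 lower. Pax5, the B cell identity factor, rose at 2 of 5 peaks, the best from 1.54, 1.01 and 1.08 log2 CPM to 2.50, 2.15 and 2.16 with Treg. Cebpa, a myeloid factor, rose at 2 of 3 peaks, the best by 1.67 on the log2 scale, and Itgam, which encodes CD11b, fell at 3 of 12 and rose at 1. Across the 71508 peaks, the log2 fold changes in KO and in WT, which share no library, correlated at 0.42; peaks are not independent replicates.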
